A study of Mus musculus with 16 samples.

Results

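The 10 genes described here are circadian clock repressor and output genes: the nuclear receptor genes Nr1d1 and Nr1d2, the period genes Per1, Per2 and Per3, the cryptochrome genes Cry1 and Cry2, the output gene Dbp, the repressor gene Bhlhe40, and Clock. They were taken by name, at their RefSeq positions on mm10, from 21887 protein-coding genes on assembled chromosomes. A region of the authors' fasted list belonged to a gene where it overlapped the gene or lay within 10 kb of it, and genes with no such region were kept. By this rule 4 of the 10 genes had a region, beside 23.3% of all protein-coding genes. They had 7 of the 8404 regions in the list, 5 inside one of the genes and 2 outside. Clock does not match the group's name, since its product is an activator, and it is described after Nr1d2 and Dbp.

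The regions mark beta-hydroxybutyrylation of lysine 9 on histone H3 (H3K9bhb), an acylation made from the ketone body beta-hydroxybutyrate, profiled by chromatin immunoprecipitation and sequencing of occipital cortex homogenate. The fasted group was C57BL/6J mice at postnatal day 35 that had been fasted for 48 h, with 4 immunoprecipitated and 4 input libraries. The ad libitum group was mice of the same strain and age with free access to food, with 4 libraries of each kind. A homogenate holds all cortical cell types together, so a change in cell makeup and a change of the mark within cells cannot be told apart. The deposited values were 2 lists of regions, 8404 enriched in fasted mice and 1 enriched in ad libitum mice, each region with a log likelihood ratio (log-LR) as the authors' own value. A list holds regions that differed between the feeding states, so a gene that carries the mark alike in both has no entry. Values for single libraries were not part of the lists, so the sequencing depth is unknown, mice could not be tested against each other, and all statements below are descriptions.

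The mammalian clock is a transcriptional feedback loop that runs in most tissues, the cortex included. CLOCK and its partner BMAL1, the product of Arntl, bind E-box sequences and activate the Per, Cry, Nr1d and Bhlhe40 genes and Dbp. PER and CRY proteins then return to the nucleus and inhibit CLOCK and BMAL1, while the receptors encoded by Nr1d1 and Nr1d2 (REV-ERB alpha and beta) repress Arntl through response elements that they share with the ROR activators. Dbp encodes a transcription factor that acts on D-box sequences and passes the rhythm on to other genes. Feeding time is a strong cue for clocks outside the brain's central pacemaker.

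Nr1d2, Dbp and Clock had a region just downstream of a transcription start, and Per1 had a region only at some distance, inside the neighbouring gene Vamp2. The other 6 genes, Nr1d1, Per2, Per3, Cry1, Cry2 and Bhlhe40, had none within 10 kb. Among all protein-coding genes 23.3% had a region in or within 10 kb, and 4 of 10 is read against that background. The 7 regions were 136 to 471 bp wide with a median of 231 bp, against a median of 205 bp over the whole list. Their log-LR ran between 3.53 and 10.8 with a median of 5.33, against 4.96 over the whole list, and 4 of the 7 were at or above that list median.

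**Figure D1:**
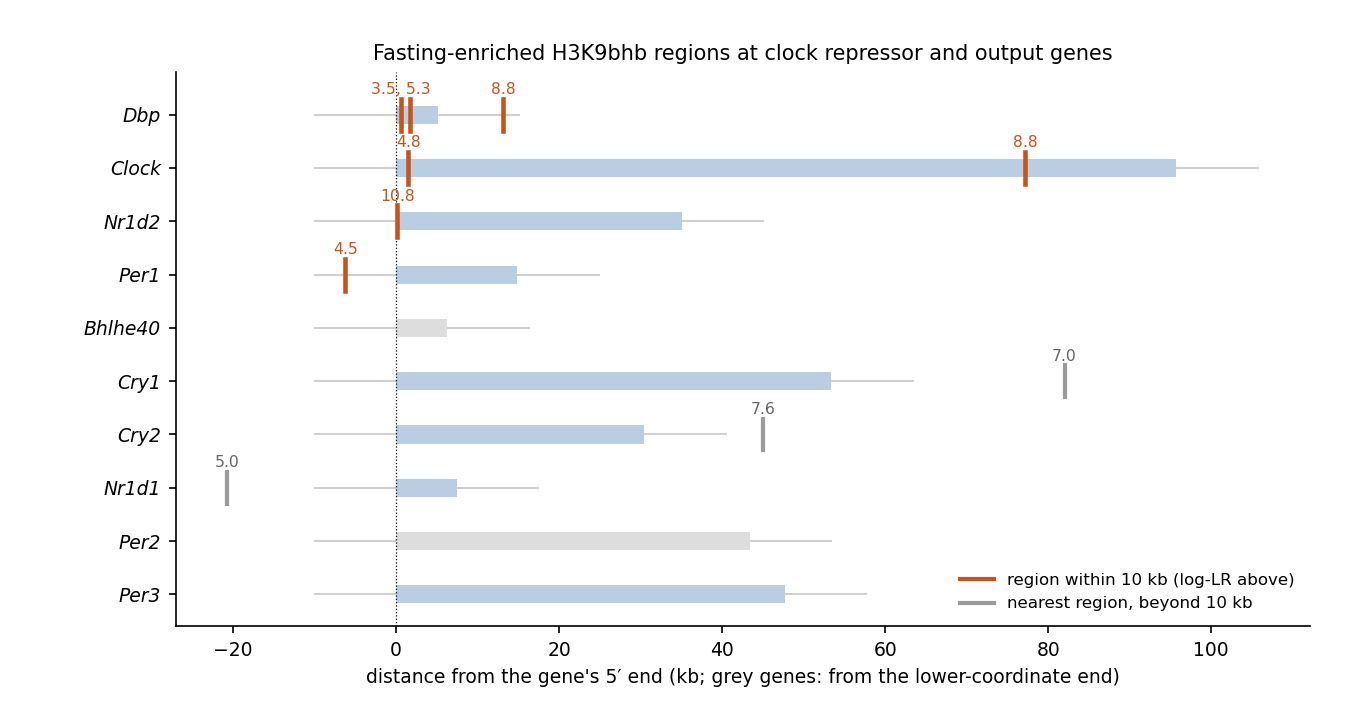
Each row is a gene, drawn to scale along its length in kb from its 5′ end (or, for the 2 genes in grey whose strand is not in the table, from the lower-coordinate end), with a thin line for the 10 kb on each side. Orange ticks are fasting-enriched regions within 10 kb with their log-LR, and grey ticks the nearest region of a gene without one, where under 40 kb away. Regions sit at the 5′ end of Dbp, Clock and Nr1d2, and the 3 grey ticks lie 14.4, 20.6 and 28.5 kb from Cry2, Nr1d1 and Cry1.

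Among the repressor receptors, Nr1d2 and its paralogue Nr1d1 differed in whether a region was listed. Nr1d2 spans 35.1 kb on the minus strand (chr14:18204056-18239106), and its region lay at chr14:18238868-18239072, 205 bp wide. The region's near edge was 34 bp downstream of the annotated start and its centre 136 bp downstream. Its log-LR of 10.8 was the highest among the 10 genes and rank 418 of the 8404 regions. Of the 2262 regions centred within 1 kb of an annotated start of a protein-coding gene, 19 (0.84%) had a log-LR this high, that of Nr1d2 included. The median log-LR of all 2262 was 4.91. No other protein-coding gene lay within 10 kb of the region; the nearest annotated neighbour was the pseudogene Gm7084 at 3.30 kb.

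Nr1d1, a gene of 7.45 kb on the minus strand (chr11:98767932-98775377), had no region in it or within 10 kb. The nearest lay 20.6 kb away, at chr11:98795996-98796257, inside Msl1, which encodes a scaffold of a histone acetyltransferase complex. That region had a log-LR of 5.01. The 2 receptors have overlapping functions in the loop, and in these lists the entry stood at Nr1d2 alone. The difference between them has no replicate check, since neither gene has a value per mouse.

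Dbp is the D-box factor gene and a classical clock output. By the 10 kb rule it had 3 regions, 2 of them inside it, the most of the 10 genes. It is the shortest of them, 5.10 kb on the plus strand (chr7:45705100-45710203), with an annotated start at 45705247. In mouse, CLOCK and BMAL1 bind E-boxes in its promoter and in its introns. The region nearest the start, chr7:45705619-45705849, was 231 bp wide with a log-LR of 3.53, near the floor of the list, whose lowest value was 3.11. Its centre lay 487 bp downstream of the start. A further region 761 bp on, at chr7:45706611-45706865, was 255 bp wide with a log-LR of 5.33, and its centre lay 1491 bp downstream of the start, 32.1% of the way along the gene. Both were inside the gene and over 2 kb from any other protein-coding gene except Car11, a carbonic anhydrase-related gene whose 3′ end lay 0.932 and 1.92 kb away.

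A pair of regions inside so short a gene was uncommon. Among the 7925 protein-coding genes under 10 kb, 7.41% had a region overlapping the gene and 0.681% had 2 or more. With regions within 10 kb counted, 2 of the 10 genes, Dbp and Clock, had 2 or more, as had 5.08% of all protein-coding genes. Dbp had 3, a number that 1.39% of all protein-coding genes reached or passed. That number includes the region described next, which lies at starts of other genes. The pair inside Dbp was 761 bp apart, so merging regions within 1 kb joins it into 1 region.

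The third Dbp region belonged by position to other genes. It lay 7.98 kb beyond the 3′ end of Dbp, at chr7:45718182-45718349, and had the highest log-LR of the 3, 8.80. Its centre was 194.5 bp downstream of a start of Rpl18, a cytosolic ribosomal protein gene on the plus strand, and 263.5 bp upstream of a start of Sphk2, a sphingosine kinase gene on the minus strand. Fam83e and Spaca4 were also within 10 kb of it, at 2.82 and 6.76 kb. On the plain reading of position, 2 of the 3 regions therefore describe Dbp itself.

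Clock, whose product dimerises with BMAL1 and which also has been described as a histone acetyltransferase, is the longest of the 10 genes at 95.7 kb on the minus strand (chr5:76209868-76305603). It had a region at each of 2 distant places. The first, chr5:76304022-76304157, was 136 bp wide with a log-LR of 4.78, and its centre lay 458.5 bp downstream of the nearest of 3 annotated starts, at 76304548. The antisense-strand long non-coding gene Gm7467 was 719 bp away, and Pdcl2, the nearest other protein-coding gene, 7.96 kb away. The second, chr5:76228311-76228575, was 265 bp wide with a log-LR of 8.81, higher than 91.7% of the list. It lay 75.4 kb from the first, at 80.6% of the gene's length, with 18.4 kb left to the 3′ end, and no other protein-coding gene was within 10 kb. Of all protein-coding genes 2.91% had 2 or more regions overlapping the gene, and long genes have more room for them.

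The period genes held a region only through a neighbour. Per1, a gene of 14.9 kb on the plus strand (chr11:69095108-69109965), had 1 region, chr11:69088629-69089099, 6.01 kb outside the gene and 10.1 kb (to its centre) upstream of the nearest annotated start of Per1. The region was 471 bp wide, wider than 94.4% of the list, with a log-LR of 4.46, below the list median. It lay wholly inside Vamp2, the gene for the synaptic vesicle SNARE protein synaptobrevin 2, with its edge 101 bp from an end of that gene. Per2, of 43.4 kb (chr1:91415977-91459351), was farthest from any region among the 10 genes, at 812 kb, where the nearest region lay in Cops8, a COP9 signalosome subunit gene. Per3, of 47.7 kb (chr4:150997018-151044707), was 264 kb from the nearest region, which was inside Camta1, a calmodulin-binding transcription factor gene, and scored a log-LR of 13.2.

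Neither cryptochrome gene had a region in it or within 10 kb, and the nearest region to each lay inside another gene. The nearest region to Cry2 (chr2:92403646-92434085) was 14.4 kb beyond its 3′ end, inside Mapk8ip1, a JNK scaffold gene, with a log-LR of 7.62. This was the closest region left out by the 10 kb limit, and the regions of Dbp at 7.98 kb and Per1 at 6.01 kb were the farthest ones let in. For Cry1 (chr10:85131700-85185054) the nearest region was 28.5 kb away, inside Tmem263, a transmembrane protein gene, and 293 bp from an end of that gene, with a log-LR of 6.98. Bhlhe40, which encodes the E-box repressor DEC1 (chr6:108660629-108666925), was 180 kb from the nearest region, in Edem1, a gene for degradation of misfolded glycoproteins. A gene without a region is not shown to lack the mark or to be alike in both feeding states; it had no entry past the authors' cutoff, whose value no source used here states.

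The regions nearest the starts of Nr1d2, Clock and Dbp lay where regions near starts were most frequent in the list. With strand taken from the RefSeq promoter table, 2417 of all fasting-enriched regions were centred within 2 kb of an annotated start of a protein-coding gene, and 84.0% of them were downstream of it. The fullest class of 250 bp was 250 to 500 bp downstream, with 33.6% of these regions, followed by 0 to 250 bp with 29.3%. The region of Nr1d2 fell in the 0 to 250 bp class, and the start regions of Clock and Dbp in the 250 to 500 bp class. The second Dbp region, at 1491 bp, was in a class with 0.993% of the regions. All 4 were downstream of the nearest annotated start of their gene. The Clock region was at the same time upstream of another Clock start, at 76303502.

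**Figure D2:**
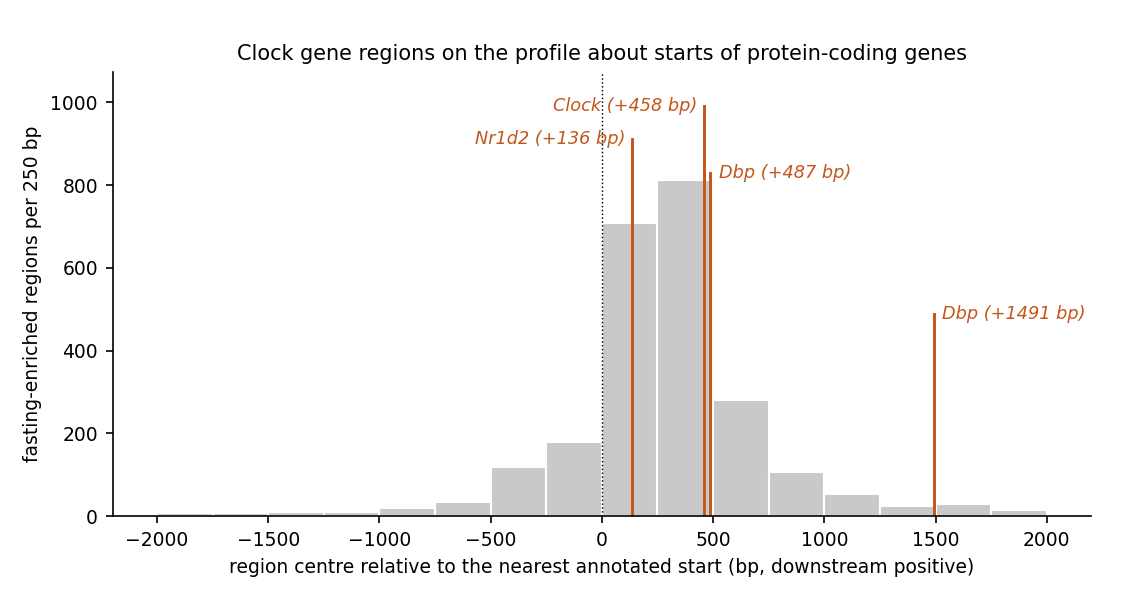
Grey bars count all fasting-enriched regions per 250 bp by the distance of their centre from the nearest annotated start of a protein-coding gene, downstream to the right. Orange lines mark the 4 clock gene regions centred within 2 kb of their own gene's start, and the height of a line carries no value. Nr1d2 at 136 bp, Clock at 458.5 bp and Dbp at 487 bp stand in the 2 fullest bars, and the other Dbp region at 1491 bp stands in a nearly empty one.

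By height the start regions were unalike. Nr1d2 had a higher log-LR than 95.0% of the list, Clock than 45.5% and the Dbp region nearest the start than 4.37%. Clock had its highest value away from its own start, at 8.81 for the distal region. Inside Dbp the higher value was 5.33, at the region farther from the start. The 8.80 within 10 kb of Dbp lay at the Rpl18 and Sphk2 starts. Among the regions of these genes the widest was not the highest. The widest, at Per1 and Vamp2, had a log-LR of 4.46, and the highest, at Nr1d2, had the median width of the list.

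**Figure D3:**
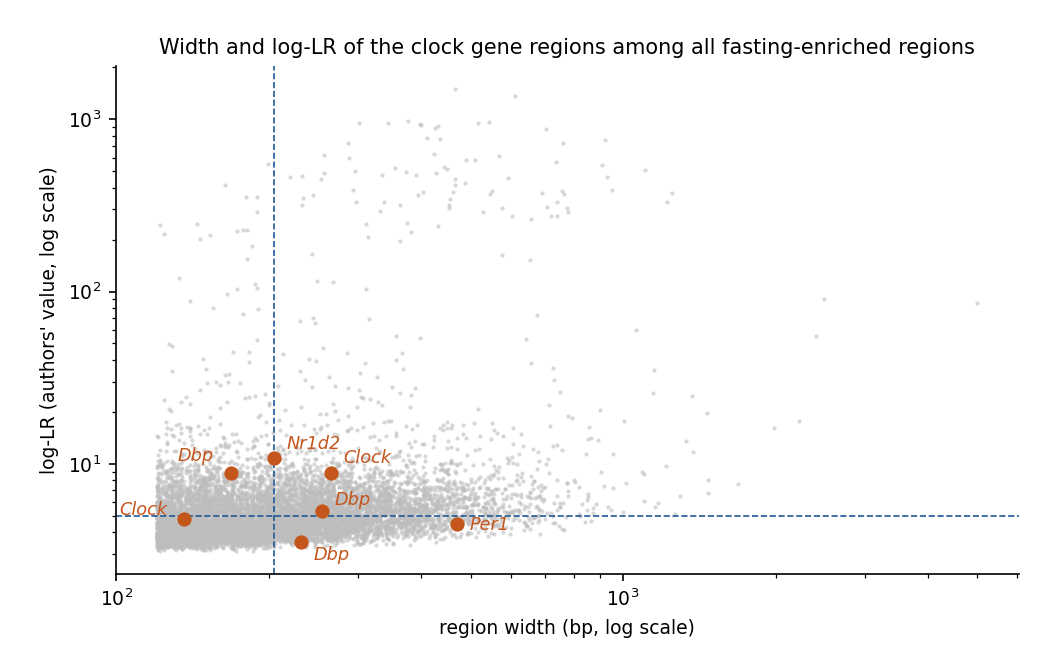
Each grey point is 1 of the 8404 fasting-enriched regions, by width in bp and log-LR, both on log scales, and dashed lines mark the list medians of 205 bp and 4.96. Orange points are the 7 regions at Nr1d2, Per1, Dbp (3) and Clock (2), all far below the list's highest log-LR of 1498.

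The promoter sequences of the genes whose start regions carry this account are printed below from the RefSeq table of build GRCm38.p6, each 300 bases on the gene's own strand from 250 before the start to 49 after it, together with those of Per1 and Per3, which hold clock motifs but no region at their start. In all, 11 promoters of 8 of the 10 genes were in the table, and the regions' own sequences were not analysed here. Motifs were searched on both strands: the E-box CACGTG, the D-box as TTATGTAA or TTATGCAA, the core AGGTCA of the ROR and REV-ERB element, the same with a leading T, TAGGTCA, the cAMP response element TGACGTCA, and its core TGACG, which the full element contains. Capitals mark motif matches and, in Nr1d2 alone, also the last 16 bases, which the fasting-enriched region covers.
Nr1d2, chr14:18239057-18239356, minus strand: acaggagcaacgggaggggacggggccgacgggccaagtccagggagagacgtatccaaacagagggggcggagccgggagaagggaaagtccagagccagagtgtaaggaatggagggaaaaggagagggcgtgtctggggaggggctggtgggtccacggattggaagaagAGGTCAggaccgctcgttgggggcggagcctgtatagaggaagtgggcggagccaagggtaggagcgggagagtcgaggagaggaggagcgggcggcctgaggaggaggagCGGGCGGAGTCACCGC
Dbp, chr7:45704997-45705296, plus strand: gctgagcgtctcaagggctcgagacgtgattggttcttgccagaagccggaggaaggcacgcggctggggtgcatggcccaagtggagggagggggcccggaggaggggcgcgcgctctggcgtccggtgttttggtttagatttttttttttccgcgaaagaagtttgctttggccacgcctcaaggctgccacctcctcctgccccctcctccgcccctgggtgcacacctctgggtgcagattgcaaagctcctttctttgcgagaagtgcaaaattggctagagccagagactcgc
Clock, chr5:76304499-76304798, minus strand: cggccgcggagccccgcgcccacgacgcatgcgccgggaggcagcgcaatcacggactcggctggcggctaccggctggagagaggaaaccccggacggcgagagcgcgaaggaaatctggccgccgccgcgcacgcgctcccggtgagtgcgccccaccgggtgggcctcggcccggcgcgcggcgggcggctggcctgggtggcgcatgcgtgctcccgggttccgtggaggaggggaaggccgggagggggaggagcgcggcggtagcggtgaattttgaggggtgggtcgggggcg
Per1, chr11:69098699-69098998, plus strand: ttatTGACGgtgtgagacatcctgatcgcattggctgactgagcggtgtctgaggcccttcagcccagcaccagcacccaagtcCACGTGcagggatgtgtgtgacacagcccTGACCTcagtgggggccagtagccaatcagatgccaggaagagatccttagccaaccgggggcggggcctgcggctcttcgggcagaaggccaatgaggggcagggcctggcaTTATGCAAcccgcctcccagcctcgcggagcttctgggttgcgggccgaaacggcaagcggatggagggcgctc
Per3, chr4:151044616-151044915, minus strand: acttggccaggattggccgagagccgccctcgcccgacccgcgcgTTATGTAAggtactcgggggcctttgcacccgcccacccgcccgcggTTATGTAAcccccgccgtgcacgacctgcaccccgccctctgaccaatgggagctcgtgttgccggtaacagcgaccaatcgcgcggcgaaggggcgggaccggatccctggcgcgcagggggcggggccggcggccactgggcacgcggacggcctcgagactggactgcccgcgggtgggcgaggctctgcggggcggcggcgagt

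Only the Nr1d2 promoter was touched by a region, over 16 bases from 34 to 49 bases after the start, and 3.19% of all 21263 promoters of protein-coding genes were overlapped by a region. The E-boxes and D-boxes found were in promoters of Per1, Per3 and Cry1. Per1 held an E-box 166 bases before its start, a D-box 24 bases before it and an AGGTCA core between them on the other strand, and Per3 held a pair of TTATGTAA D-boxes. Cry1 held an E-box 60 bases before its start. None of these genes had a region at its start. Motif shares were not computed apart for promoters with and without a region, so no contrast follows from these few genes. Nr1d2 held an AGGTCA core 77 bases before the start, and the printed promoters of Dbp and Clock held none of the motifs. At the Clock start at 76303502, whose promoter is not printed, an AGGTCA core lay on the other strand, 119 bases before the start. E-boxes were present in 7.84% of all promoters, D-boxes in 1.66%, AGGTCA in 14.7% and TGACG in 23.6%, against 2, 2, 3 and 4 of the 11 promoters here. TAGGTCA (2.32% of all promoters) and the full TGACGTCA (2.23%) were in none of the 11. A match of letters is not a bound site, and no match says only that the letters are not in this window.

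Promoters whose start had a region within 1 kb had a median of 65.3% G and C and 26 CG dinucleotides, and the other promoters had 55.0% and 10. The Nr1d2 promoter had 65.7% G and C with 20 CG, the Dbp promoter 60.3% with 18, and the printed Clock promoter 76.7% with 46. The other Clock promoters had 76.3% with 42 CG and, at the start at 76303502, which also had the region within 1 kb, 47.0% with 9. Among the genes with no region at their start, Per3 had 73.3% with 41 CG, Cry1 72.3% with 38, Cry2 70.3% with 30 and Nr1d1 56.3% with 9, and the Per1 promoters had 63.3% with 16 and 64.7% with 21.

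The other genes of the clock pathway were taken as a list of 35, drawn up with earlier results of these data known. A region in or within 10 kb was present at 17 of the 35 (48.6%), beside 23.3% of all protein-coding genes, and these 17 genes held 22 regions with log-LR from 3.50 to 9.22 and a median of 5.41. Other genes near these 22 regions were not looked up, so some may belong by position to a neighbour, as at Per1 and Dbp. Within 1 kb of a gene end the counts were 2 of 10 for the repressor and output genes, 11 of 35 for the other pathway genes, and 11.9% of all protein-coding genes. Overlapping the gene they were 3 of 10 and 14 of 35, beside 16.4%. Within 1 kb of an annotated start they were 3 of 8 and 10 of 29, beside 13.2% of 17492 genes with a start in the table. Counts over 10 genes move by 10 points with each gene, and gene length moves with the share. A region in or within 10 kb was present at 15.2% of genes under 10 kb and 21.3% of those of 10 to 30 kb. It was present at 26.1% of those of 30 to 60 kb and 33.2% of those of 60 to 120 kb. Per2, Per3, Cry1, Cry2 and Nr1d2 were in the class of 30 to 60 kb, and among them only Nr1d2 had a region. The median length was 32.7 kb for the 10 genes and 27.2 kb for the other pathway genes, against 17.2 kb for all protein-coding genes. The part of length in these shares was not tested.

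**Figure D4:**
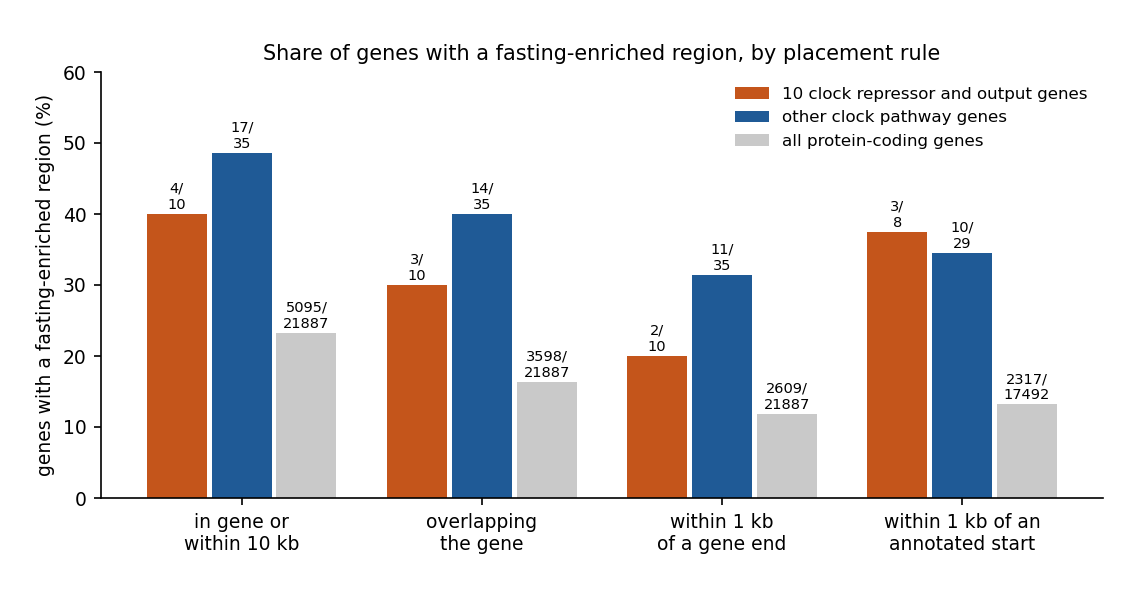
Bars give the percentage of genes with a fasting-enriched region under 4 placement rules, for the 10 clock repressor and output genes, the 35 other clock pathway genes and all protein-coding genes, with the count over the number of genes on each bar. The bars for all protein-coding genes are the lowest under each rule, and each bar of the 10 genes rests on 2 to 4 genes. The rules overlap and count largely the same genes, so they are not separate evidence. Both gene lists were chosen with earlier results of these data known.

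By role, the 17 genes were spread over the activators, repressors, kinases, ubiquitin genes, cofactors and outputs of the loop. The counts by role below rest on 3 to 8 genes each, and all are to be read beside the 23.3% of all protein-coding genes with a region in or within 10 kb. Among the activators 2 of 5 had one: Arntl, which encodes BMAL1, at a log-LR of 3.50 and 759 bp downstream of a start, and Rora, which encodes a nuclear receptor that activates Arntl, at 5.89 deep inside the gene. Npas2, Arntl2 and Rorb had none. Among the further repressors Bhlhe41, the paralogue of Bhlhe40, had a region at 5.89 inside the gene, centred 2226 bp downstream of its start, and Ciart, Cipc and Timeless had none. The D-box factors Tef, Hlf and Nfil3, which bind the same motif as DBP, had none (0 of 3).

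Of the 4 kinase genes that phosphorylate clock proteins 3 had a region, beside 23.3% of all protein-coding genes: Gsk3b at a log-LR of 6.39, Csnk1d, the casein kinase 1 delta gene, at 5.25, and Csnk2a1 at 4.41; Csnk1e had none. Of the 4 ubiquitin genes 3 had one. Fbxw11 had regions of 6.83 and 3.63, and Btrc, its paralogue in the ligase that targets PER proteins, had one of 4.35. Usp2, a rhythmic deubiquitinase gene, had regions of 6.42 and 3.96, while the CRY ligase gene Fbxl21 had none.

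Among 7 partners in repression and activation 3 had a region. Sfpq, whose product takes part in PER complexes, had the highest log-LR of the 35 genes, 9.22, centred 533.5 bp downstream of a start. Crebbp, a histone acetyltransferase gene, had 7.05 at 403 bp downstream. Hdac3, the deacetylase that REV-ERB proteins recruit with NCOR1, had regions of 6.48 and 4.77 that both lay outside the gene, at 383 and 1712 bp. Ncor1, Nono, Wdr5 and Sirt1 had none. Of 8 further output genes 5 had a region, beside the same 23.3%. Klf9, a glucocorticoid-responsive and rhythmic factor gene, had 3 regions of 6.98, 4.10 and 4.05, Klf10 had 6.47 at 7.77 kb from the gene, and Nampt, the NAD salvage enzyme gene, had 4.71 just upstream of its start. The cold-inducible RNA-binding protein genes Rbm3 and Cirbp had 5.57 and 3.83, and Noct, Wee1 and Avp had none.

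**Figure D5:**
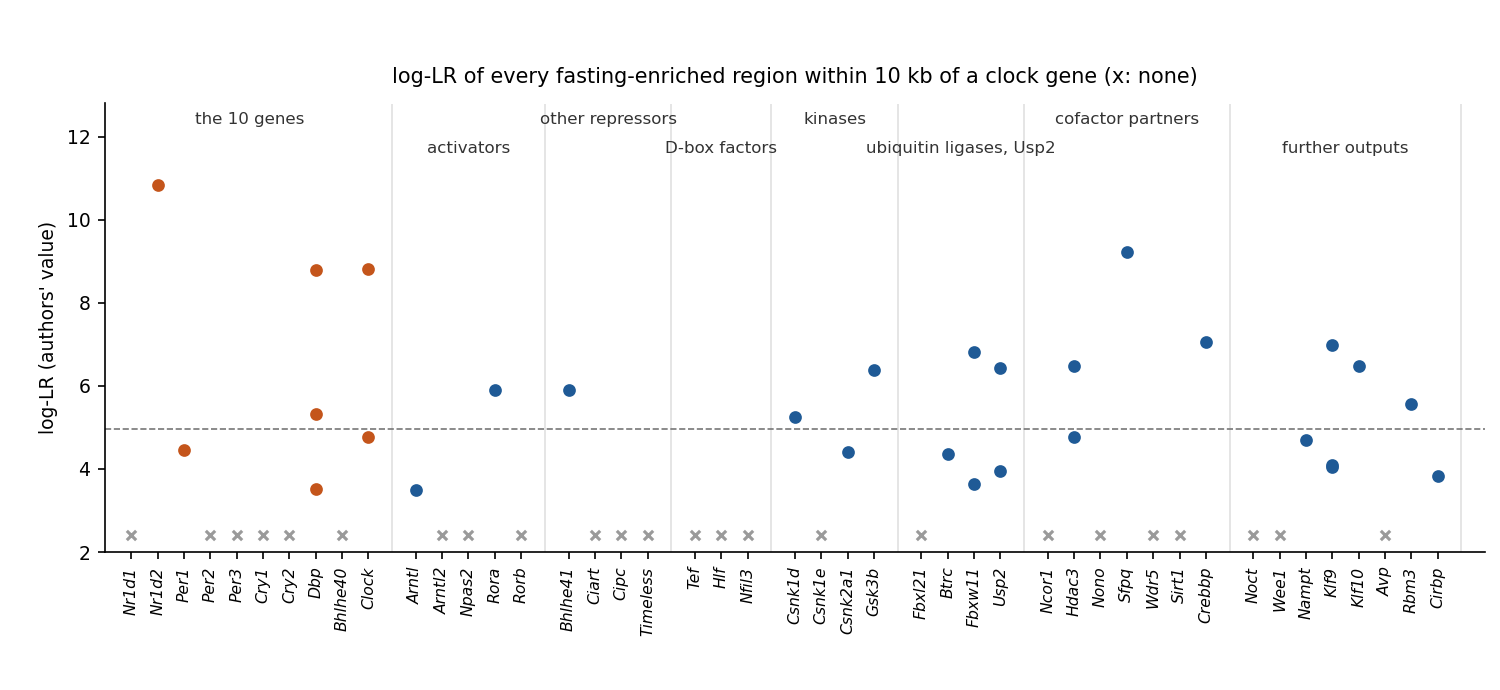
Each point is a fasting-enriched region within 10 kb of a gene on the x axis, by its log-LR, with the 10 repressor and output genes in orange and 35 other clock pathway genes in blue, grouped by role, and the list median of 4.96 dashed. A grey x marks a gene with no region, and Nr1d2 at 10.8 is the highest point, followed by Sfpq at 9.22.

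The ad libitum list added nothing at these genes. Its single region lay on chromosome 3, which holds none of the 10. Of 19 markers for cortical cell types and for tissues outside the dissection 2 had a fasting-enriched region in or within 10 kb, the astrocyte gene Aldh1l1 and the oligodendrocyte gene Mbp, beside 23.3% of all protein-coding genes; a list of differing regions does not show which cell types the homogenate held, and the part of cell makeup in the regions at clock genes was not tested. The labels used here give no time of day for the tissue, which sets the state of these genes in a rhythmic tissue, and its part was not tested either.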

How the data were processed

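The submitters' processing notes name Bowtie2 and MACS2 as tools and mm10 as build, and give no version or role. The region lists deposited by the authors give a position, a name and a log-LR, the last used here as a score per region. Its log base and cutoff, the depth, its scaling and whether libraries were pooled are not stated in any source used here. The other deposited columns, start and end, were read with starts counted from 0, since the smallest width is then exactly 120 bp, and are given from 1. Genes came from RefSeq, assembly GRCm38.p6. Strand and start sites came from its promoter table, which holds 17492 of 21887 protein-coding genes. The members and lists were chosen with earlier results of these data known. All 10 genes, genes sharing their regions, pathway genes with a region, and the gene nearest to each member's nearest region were named by rule. Of the pathway list as first drawn up, 2 genes are not reported here and enter no count of it. Counts were read beside the same share of all protein-coding genes, with no test. The counting was tested on simulated regions at 200 genes. Alternatives were other windows, region centres, higher log-LR, merging and starts counted from 1. Python 3.11.15, numpy 2.4.6, pandas 2.3.3 and matplotlib 3.10.9 were used.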

Additional observations from a re-analysis of the deposited data

How the results depend on the processing

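Of 22 alternative settings over 5 counts, 19 stayed within 1.5 times the reported count. Merging regions cannot take a gene out of these counts, and counting starts from 1 moves an edge by 1 base. Those settings could hardly change a count, so the tally of 19 says little about stability. The 10 genes with a region in or within 10 kb numbered 3 at 5 kb (20.3% of all protein-coding genes), where Per1 dropped out, and 5 at 20 kb (29.2%), where Cry2 came in. Within 1 kb of a gene end, the count of 2 became 1 with a window of 500 bp (9.55% of all genes) and 1 with only regions at or above the median log-LR (6.08%), which left Nr1d2 both times. Near an annotated start, the count of 3 became 1 at or above the median log-LR (6.81% of all genes), again Nr1d2; this alternative keeps fewer regions by construction. The other pathway genes numbered between 12 of 35 at or above the median log-LR (12.9% of all genes) and 20 of 35 at 20 kb (29.2%). No paired analysis was possible because single libraries have no values in the lists, and leaving out replicates was not run for the same reason. The unknown depth and cutoff limit what a missing region can show.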
